A study of Mus musculus with 22 samples.

Results

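The genes described here are 36 markers of Kupffer cells and other macrophages. They were chosen by name from what is known of these cells, but with earlier results of these data known. They were split into 7 genes of the resident Kupffer cell (Clec4f, Vsig4, Timd4, Cd5l, Marco, Cd163 and Folr2) and 29 general myeloid genes. Every probe whose gene symbol in the platform annotation equals one of these names was taken, which gave 61 probes for 35 genes, and none listed for Cd68. Of the 36 genes, 29 had a probe that 3 or more arrays detected (detection p under 0.05), out of 11975 genes tested in all.

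The arrays measured RNA from microdissected liver of female C3H mice, in a study of liver tumours that form under TCPOBOP, an agonist of the nuclear receptor CAR that does not itself damage DNA. In the DENA plus TCPOBOP group (9 arrays), mice received DENA, a DNA-damaging liver carcinogen, once by intraperitoneal injection at 90 mg/kg, and after a recovery period TCPOBOP by gavage at 3 mg/kg each week for 28 weeks. The TCPOBOP 42 weeks group (7 arrays) and the TCPOBOP 28 weeks group (3 arrays) received the same weekly dose without DENA. The controls (3 arrays) carry an abbreviated title that the series' design counts as controls, and the protocol gives age-matched mice with DMSO in corn oil as the study's controls. The labels report hepatocellular carcinomas at the end of both regimens, but do not tell tumour from other liver, nor the ages of the controls, nor whether the arrays come from separate mice. The p-values below therefore measure the spread between these arrays, which may be technical. The arrays lay on 4 slides, and between 34.8% and 42.6% of the 45281 probes were detected on each. Pearson r over genes between arrays of a group was 0.9461 to 0.9815 in DENA plus TCPOBOP, 0.9459 to 0.9754 at 42 weeks, 0.9897 to 0.9918 at 28 weeks and 0.985 to 0.9915 in controls, so the first 2 of these groups were the more varied.

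Kupffer cells are the macrophages that live in the liver sinusoids, where they take up particles, bacteria, aged red cells and complement-coated material from portal blood. In the mouse, Clec4f, a C-type lectin, marks them almost alone among macrophages, and Vsig4 (a receptor for complement C3 fragments) and Timd4 (a receptor for phosphatidylserine on dying cells) mark the long-lived resident cells. Macrophages that arise from blood monocytes in a damaged or tumour-bearing liver share the general genes, such as Csf1r, Lyz2, Tyrobp and the C1q chains, and take on the resident genes late or not at all. Trem2 and Gpnmb are known from lipid-laden and tumour-associated macrophages. In tissue RNA, fewer cells of a type and less RNA per cell cannot be told apart.

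The 3 resident genes that moved together have the RefSeq promoter windows below (250 bases before to 50 after the gene's start, build GRCm38.p6, 5′ to 3′ on the gene's strand). They are shown beside 3 general myeloid genes that were picked because their windows hold a motif searched for here. The windows were searched on both strands for GAGGAAG, a core of sites bound by PU.1, the factor that macrophages need, and for the E-box CACGTG, a site of MITF and related factors that shares no bases with it. Neither is in these 3 windows.
Clec4f, chr6:83656067-83656366, minus strand: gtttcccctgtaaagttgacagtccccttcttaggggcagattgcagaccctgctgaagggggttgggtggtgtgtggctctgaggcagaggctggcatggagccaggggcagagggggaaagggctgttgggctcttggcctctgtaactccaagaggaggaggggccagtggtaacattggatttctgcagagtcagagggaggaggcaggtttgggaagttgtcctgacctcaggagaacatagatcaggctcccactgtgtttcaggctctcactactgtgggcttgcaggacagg
Vsig4, chrX:96293389-96293688, minus strand: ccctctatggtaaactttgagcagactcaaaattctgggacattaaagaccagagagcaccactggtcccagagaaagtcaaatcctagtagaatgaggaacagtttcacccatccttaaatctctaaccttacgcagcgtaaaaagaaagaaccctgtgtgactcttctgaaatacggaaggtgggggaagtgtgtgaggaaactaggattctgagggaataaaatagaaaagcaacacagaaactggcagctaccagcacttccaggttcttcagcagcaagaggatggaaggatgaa
Timd4, chr11:46810549-46810848, plus strand: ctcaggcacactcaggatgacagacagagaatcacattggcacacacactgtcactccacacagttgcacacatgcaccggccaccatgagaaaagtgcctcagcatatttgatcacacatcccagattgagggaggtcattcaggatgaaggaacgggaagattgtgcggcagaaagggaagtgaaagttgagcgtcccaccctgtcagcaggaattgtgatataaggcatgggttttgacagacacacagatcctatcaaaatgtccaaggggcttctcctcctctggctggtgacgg
The windows of Fcgr3, Laptm5 and Trem2 each hold the PU.1 core once, read on the other strand and written in capitals. It begins 16 bases before the start of Fcgr3 in the window shown, which is 1 of 2 listed for that gene, 39 before that of Laptm5 and 41 before that of Trem2.
Fcgr3, chr1:171059345-171059644, minus strand: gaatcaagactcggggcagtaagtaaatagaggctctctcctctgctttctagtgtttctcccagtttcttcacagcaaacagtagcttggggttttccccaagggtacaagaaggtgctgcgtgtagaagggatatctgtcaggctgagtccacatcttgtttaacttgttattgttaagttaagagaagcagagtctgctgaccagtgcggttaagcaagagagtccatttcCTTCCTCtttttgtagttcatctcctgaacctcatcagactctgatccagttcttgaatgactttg
Laptm5, chr4:130913066-130913365, plus strand: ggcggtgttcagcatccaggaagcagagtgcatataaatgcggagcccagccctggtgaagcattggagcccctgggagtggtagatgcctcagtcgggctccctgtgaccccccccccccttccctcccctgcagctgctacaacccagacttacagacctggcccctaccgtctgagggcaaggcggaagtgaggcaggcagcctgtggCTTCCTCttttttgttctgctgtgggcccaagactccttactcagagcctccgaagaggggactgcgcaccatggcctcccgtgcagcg
Trem2, chr17:48346151-48346450, plus strand: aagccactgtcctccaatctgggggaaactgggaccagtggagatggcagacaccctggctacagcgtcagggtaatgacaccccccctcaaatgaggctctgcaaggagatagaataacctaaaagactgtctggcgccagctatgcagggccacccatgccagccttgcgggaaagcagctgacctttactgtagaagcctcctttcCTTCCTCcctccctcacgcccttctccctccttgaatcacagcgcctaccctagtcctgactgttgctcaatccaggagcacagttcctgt
RefSeq windows were at hand for 28 of the 36 genes. The PU.1 core was in the window of 11 of these 28 (39.3%), against 15.4% of the 27025 genes with a window. By class it was in 2 of 7 resident genes (Cd5l and Marco) and in 9 of 21 general myeloid genes. The E-box was in none of the 28, against 8.09% of all genes with a window. The LXR element was in none of the 28 either, against 0.0148% of all genes with a window. Of the genes that rose at 42 weeks over controls, Fcgr3, Laptm5, Trem2 and C1qc hold the core. The windows of C1qb, Lyz1, Lyz2 and Gpnmb, which also rose there, lack it, and Cd14 has no window. Of the genes that fell there, Mrc1 holds the core 2 times and Clec4f and Cd163 lack it. Whether the core goes with the direction of change was not tested. These are matches of letters, not sites shown to be bound.

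Levels below are log2 of the authors' normalized intensities, taken from the brightest kept probe of a gene, and a level is comparable between arrays but not between genes. Changes are differences of group means on that scale ± standard error, with p from limma and Benjamini-Hochberg adjustment across the 11975 genes, and a change passed the test when this adjusted p was under 0.05. No background was subtracted from the intensities, so changes of dim genes are understated. The floor of the arrays can be read from the probe of Cd5l, detected on no array, which gave 6.53 to 6.90.

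At 28 weeks of TCPOBOP alone most genes of both classes had higher means than in controls, with 27 of 29 changes above 0. Both in DENA plus TCPOBOP and at 42 weeks, Clec4f, Vsig4, Timd4, Adgre1, Csf1r and Mrc1 fell relative to TCPOBOP 28 weeks. Relative to controls, Mrc1 fell in both groups and Clec4f at 42 weeks, while Vsig4, Timd4, Adgre1 and Csf1r passed in neither. Cd14, Fcgr3, C1qb and Laptm5 were higher than in controls in both groups, and their means were above those of controls at 28 weeks as well. Gpnmb and Trem2 rose at 42 weeks, and between DENA plus TCPOBOP and TCPOBOP 42 weeks none of the 29 genes passed the test, where 1.81% of all genes did.

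**Figure D1:**
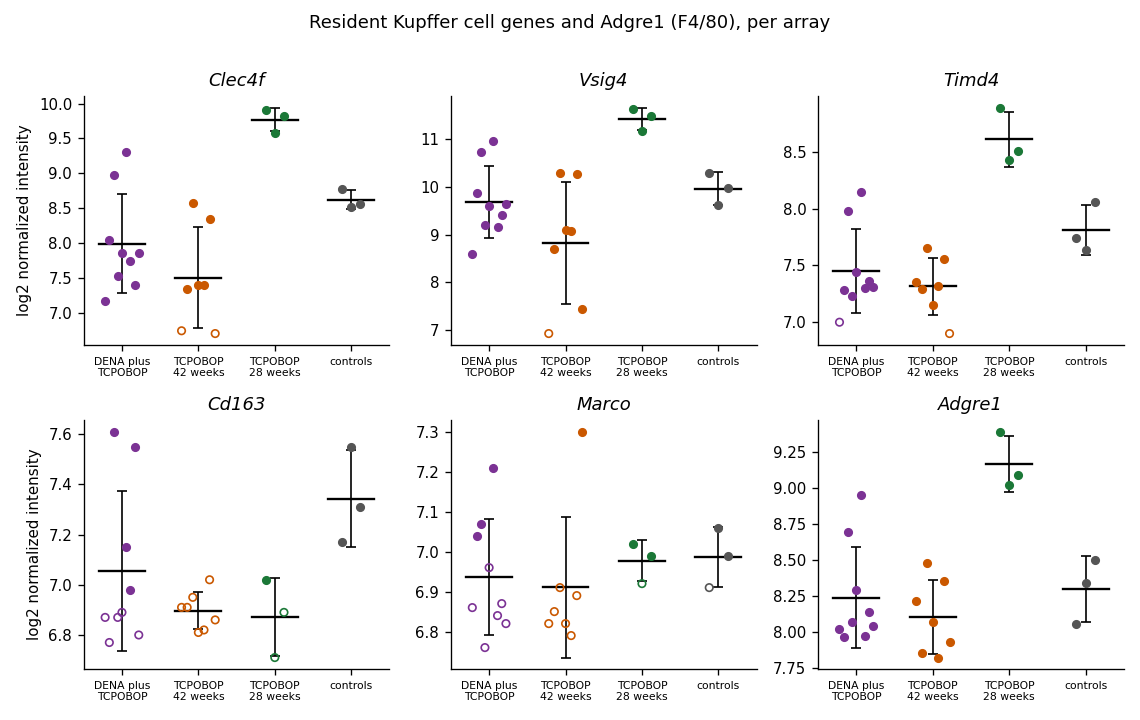
Log2 normalized intensity of 5 resident Kupffer cell genes and of Adgre1 on each array, by group. Filled points were detected and open points were not, bars are means and whiskers SD. For Clec4f, Vsig4, Timd4 and Adgre1 the 3 arrays of TCPOBOP 28 weeks lie above every array of the other groups, and the 7 arrays of TCPOBOP 42 weeks reach down to the floor for Clec4f and Vsig4.

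Clec4f had a lowest, median and highest level of 7.17, 7.85 and 9.30 in the 9 DENA plus TCPOBOP arrays and of 6.70, 7.39 and 8.58 in the 7 arrays of TCPOBOP 42 weeks. It read 9.91, 9.58 and 9.82 in the arrays of TCPOBOP 28 weeks and 8.78, 8.52 and 8.56 in controls. All TCPOBOP 28 weeks arrays were above all others, whereas DENA plus TCPOBOP and the 42-week arrays overlapped each other and the controls. Relative to TCPOBOP 28 weeks, Clec4f, whose promoter window heads those above, fell by 1.79 ± 0.39 in DENA plus TCPOBOP (3.45-fold lower, adjusted p = 0.00496) and fell by 2.27 ± 0.41 at 42 weeks (4.83-fold lower, adjusted p = 0.000903). Relative to controls it fell by 1.12 ± 0.41 at 42 weeks (adjusted p = 0.0402, but up to 0.122 and lost without any array compared other than TCPOBOP 42 weeks replicate 3 or 6), and differed by -0.63 ± 0.39 in DENA plus TCPOBOP (adjusted p = 0.266) and by 1.15 ± 0.48 at 28 weeks (adjusted p = 0.192). Its probe was detected on 5 of the 7 arrays of TCPOBOP 42 weeks and on every array of the other groups. A second, dimmer Clec4f probe, fitted with all probes, also fell relative to TCPOBOP 28 weeks, with log2 changes of -0.74 in DENA plus TCPOBOP and -0.87 at 42 weeks (adjusted p = 0.00141 and 0.000434). Against controls it gave other calls than the brighter probe, as it differed by -0.14 in DENA plus TCPOBOP and -0.28 at 42 weeks (adjusted p = 0.508 and 0.148) and rose by 0.59 at 28 weeks (adjusted p = 0.0377).

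Vsig4 ranged from 8.60 through a median of 9.60 to 10.95 in DENA plus TCPOBOP and from 6.93 through 9.07 to 10.28 at 42 weeks. The values were 11.62, 11.17 and 11.48 at 28 weeks of TCPOBOP and 10.29, 9.62 and 9.98 in controls. As for Clec4f, the 28-week arrays stood above all others and the remaining groups overlapped. Vsig4 fell by 1.74 ± 0.56 in DENA plus TCPOBOP (adjusted p = 0.043) and fell by 2.60 ± 0.58 at 42 weeks (6.07-fold lower, adjusted p = 0.00457), both relative to TCPOBOP 28 weeks. Against controls its differences were -0.28 ± 0.56, -1.14 ± 0.58 and 1.46 ± 0.68 in DENA plus TCPOBOP, at 42 weeks and at 28 weeks, and none passed the test (adjusted p = 0.769, 0.141 and 0.258). Of the 2 falls, that in DENA plus TCPOBOP had an adjusted p between 0.0207 and 0.158 when 1 array was left out, and passed the test without DENA plus TCPOBOP replicate 3 or 6 but not without any other array of the 2 groups. It was also lost with neqc, median scaling, no filter, slide as a fixed block, and trend and robust moderation (adjusted p up to 0.102), while the fall at 42 weeks passed whichever array was left out and under every other processing run.

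Timd4 had 7.00, 7.31 and 8.15 as lowest, median and highest level in DENA plus TCPOBOP and 6.90, 7.32 and 7.65 at 42 weeks. In the TCPOBOP 28 weeks arrays it read 8.89, 8.43 and 8.51, and in controls 7.74, 7.64 and 8.06. The 28-week arrays again lay above every other array. Timd4 fell by 1.16 ± 0.20 in DENA plus TCPOBOP (2.23-fold lower, adjusted p = 0.00061) and by 1.29 ± 0.20 at 42 weeks (2.45-fold lower, adjusted p = 0.0003) relative to TCPOBOP 28 weeks. Against controls it rose by 0.80 ± 0.24 at 28 weeks (1.74-fold higher, adjusted p = 0.0496), and its differences in DENA plus TCPOBOP (-0.36 ± 0.20, adjusted p = 0.19) and at 42 weeks (-0.49 ± 0.20, adjusted p = 0.0665) did not pass. The falls of Clec4f and Timd4 against TCPOBOP 28 weeks passed the test whichever array was left out and under every other processing run. The rise of Timd4 at 28 weeks was lost when any 1 of the 6 arrays compared was left out, with an adjusted p of 0.0566 to 0.222.

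Cd163, the receptor that takes up haemoglobin bound to haptoglobin, had a different course. It ranged from 6.77 through 6.89 to 7.61 in DENA plus TCPOBOP and from 6.81 through 6.91 to 7.02 at 42 weeks, and read 7.02, 6.71 and 6.89 at 28 weeks and 7.17, 7.55 and 7.31 in controls. It was detected on 4 of 9, 0 of 7, 1 of 3 and 3 of 3 arrays of these groups. Controls lay above all arrays of both TCPOBOP groups, including the 28-week group in which Clec4f, Vsig4 and Timd4 were highest. Cd163 fell at 42 weeks, where it was not above background, at least 1.25-fold lower than in controls (measured difference -0.45 ± 0.16, adjusted p = 0.0327), and differed by -0.47 ± 0.18 at 28 weeks (adjusted p = 0.157) and -0.29 ± 0.15 in DENA plus TCPOBOP (adjusted p = 0.173). Without controls replicate 2 or 3 the 42-week fall did not pass, with an adjusted p of up to 0.19. Marco, a scavenger receptor for bacteria, stayed between 6.76 and 7.30 on all 22 arrays, was detected on 8 of them, and passed no test. The probe of Cd5l was detected on no array and the probes of Folr2 on at most 2, so nothing can be said of these 2 genes.

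**Figure D2:**
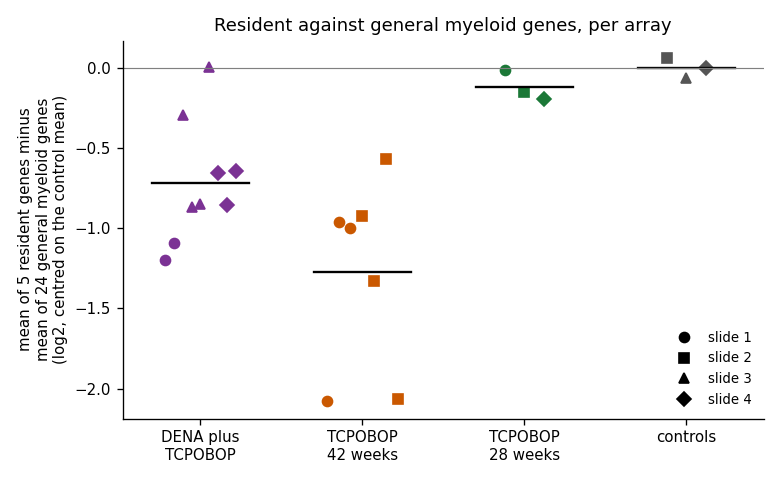
For each array, the mean of the 5 measured resident genes minus the mean of the 24 measured general myeloid genes, in log2 units centred on the control mean. Symbols give the slide and bars the group means. All 7 arrays of TCPOBOP 42 weeks and 8 of the 9 DENA plus TCPOBOP arrays lie below every array of TCPOBOP 28 weeks and controls.

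The contrast between the classes was put into 1 value per array, the mean of the 5 measured resident genes minus the mean of the 24 measured general myeloid genes, both relative to their control means. It averaged -0.716 ± 0.379 in DENA plus TCPOBOP (SD, n = 9), -1.27 ± 0.589 at 42 weeks (n = 7) and -0.117 ± 0.0914 at 28 weeks (n = 3), with controls between -0.0635 and 0.0648. The lowest arrays were TCPOBOP 42 weeks replicates 1 and 7, at -2.0802 and -2.0681, and the highest array of DENA plus TCPOBOP was replicate 6, at 0.0087. No test between groups was made of this value, as the genes were chosen with results of these data known. A stricter filter leaves out Marco and Cd163 of the resident and Itgb2 and Ptprc of the general genes. With it the resident minus general value was 0.384 at 28 weeks relative to controls, with the sign turned. At 42 weeks relative to 28 weeks it was then -1.98.

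Adgre1, Csf1r and Mrc1, which are general macrophage genes, fell beside the resident genes relative to TCPOBOP 28 weeks. Adgre1 encodes F4/80, a surface receptor carried by most tissue macrophages of the mouse. It ranged from 7.96 through 8.07 to 8.95 in DENA plus TCPOBOP and from 7.82 through 8.07 to 8.48 at 42 weeks, with 9.39, 9.02 and 9.09 at 28 weeks and 8.05, 8.34 and 8.50 in controls. The 28-week arrays were above all others. Adgre1 fell by 0.93 ± 0.19 in DENA plus TCPOBOP (adjusted p = 0.00253) and by 1.07 ± 0.19 at 42 weeks (adjusted p = 0.000985) relative to TCPOBOP 28 weeks, in which it rose by 0.87 ± 0.23 over controls (adjusted p = 0.0245). Against controls it differed by -0.06 ± 0.19 in DENA plus TCPOBOP and -0.20 ± 0.19 at 42 weeks, and a second Adgre1 probe had the other sign there (0.13 and 0.12).

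Csf1r encodes the receptor for CSF1 and IL-34, on which macrophages depend for survival. Its lowest, median and highest levels were 7.83, 8.34 and 9.03 in DENA plus TCPOBOP and 7.99, 8.37 and 8.93 at 42 weeks, against 9.25, 8.91 and 8.97 at 28 weeks and 7.99, 8.01 and 8.30 in controls. DENA plus TCPOBOP replicate 6 and TCPOBOP 42 weeks replicate 3 overlapped with the 28-week arrays. Csf1r fell by 0.69 ± 0.21 in DENA plus TCPOBOP (adjusted p = 0.0317) and by 0.70 ± 0.22 at 42 weeks (adjusted p = 0.0337) relative to TCPOBOP 28 weeks, and rose by 0.94 ± 0.26 at 28 weeks over controls (adjusted p = 0.029). The fall in DENA plus TCPOBOP was lost without any 1 of the 28-week arrays (adjusted p up to 0.172), and that at 42 weeks without any 1 of those or of TCPOBOP 42 weeks replicates 2, 4 and 6 (adjusted p up to 0.163).

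Mrc1, the mannose receptor, is made by Kupffer cells and also by the endothelium of the sinusoids. It had 8.45, 9.21 and 9.80 as lowest, median and highest level in DENA plus TCPOBOP and 8.75, 9.28 and 9.73 at 42 weeks, with 10.66, 10.04 and 10.45 at 28 weeks and 10.108, 10.002 and 10.368 in controls. The arrays of DENA plus TCPOBOP and TCPOBOP 42 weeks lay below all 28-week and control arrays without overlap. Mrc1 fell by 1.01 ± 0.23 in DENA plus TCPOBOP (2.01-fold lower, adjusted p = 0.00253) and by 0.87 ± 0.24 at 42 weeks (adjusted p = 0.00832) relative to controls, and by 1.23 ± 0.23 and 1.09 ± 0.24 relative to TCPOBOP 28 weeks (adjusted p = 0.00155 and 0.00443). Without controls replicate 3 the 42-week fall from controls had an adjusted p of 0.0556. Between 28 weeks and controls Mrc1 differed by 0.22 ± 0.29 (adjusted p = 0.765). The list of endothelial genes, which counts Mrc1 as well, is given further on.

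**Figure D3:**
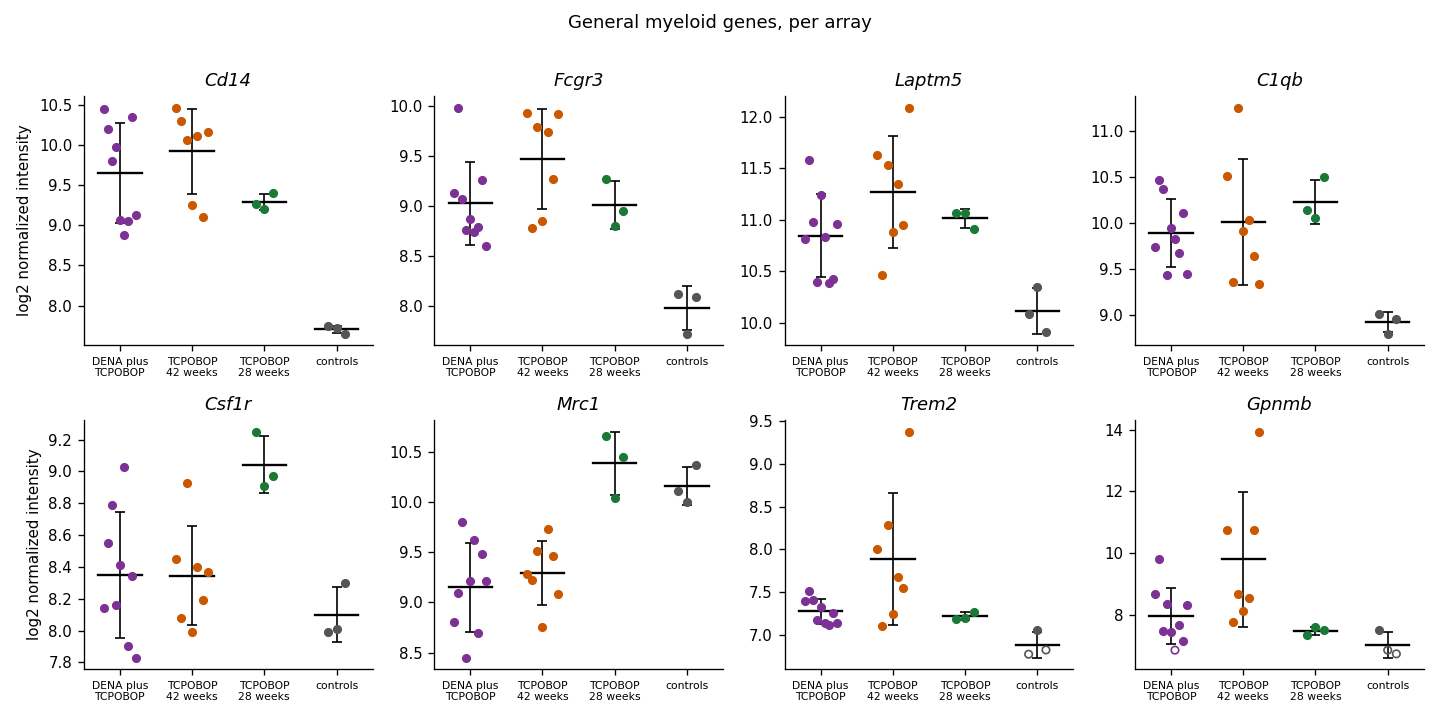
Log2 normalized intensity of 8 general myeloid genes on each array, by group, with means and SD as bars and whiskers and open points where a probe was not detected. Cd14, Fcgr3, Laptm5 and C1qb lie above the controls on all arrays of every treated group, Mrc1 lies below them in DENA plus TCPOBOP and at 42 weeks, and Gpnmb reaches 13.93 on 1 array of TCPOBOP 42 weeks.

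Cd14, the co-receptor that hands bacterial lipopolysaccharide to Toll-like receptor 4, rose in every treated group. It ranged from 8.88 through 9.81 to 10.45 in DENA plus TCPOBOP and from 9.10 through 10.12 to 10.47 at 42 weeks, and read 9.27, 9.20 and 9.40 at 28 weeks against 7.74, 7.72 and 7.65 in controls. Not one treated array overlapped with the controls. The rises were 1.96 ± 0.32 in DENA plus TCPOBOP (3.88-fold, adjusted p = 0.000101), 2.22 ± 0.33 at 42 weeks (4.67-fold, adjusted p = 3.12e-05) and 1.59 ± 0.40 at 28 weeks (3.00-fold, adjusted p = 0.0168). These comparisons share the same 3 controls. The first 2 passed whichever array was left out and under every other processing run, whereas the 28-week rise passed without TCPOBOP 28 weeks replicate 2 and was lost without any other array of the 6 compared (adjusted p of 0.0468 to 0.0648). Hepatocytes can also make Cd14, so its level is not that of macrophages alone.

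Fcgr3, the activating low-affinity receptor for IgG, was also higher in the treated groups. It had 8.60, 8.87 and 9.98 as lowest, median and highest level in DENA plus TCPOBOP and 8.78, 9.74 and 9.93 at 42 weeks, and it read 9.27, 8.80 and 8.95 at 28 weeks and 8.12, 7.72 and 8.09 in controls. All treated arrays were above all controls. Fcgr3 rose by 1.05 ± 0.26 in DENA plus TCPOBOP (2.06-fold, adjusted p = 0.00444) and by 1.49 ± 0.27 at 42 weeks (2.81-fold, adjusted p = 0.000209), while its difference of 1.03 ± 0.32 at 28 weeks just missed the threshold (adjusted p = 0.057). Both rises passed whichever array was left out and under every other processing run.

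Tyrobp, the adaptor that carries the signal of Trem2 and other receptors, ranged from 7.78 through 7.96 to 8.46 in DENA plus TCPOBOP and from 7.69 through 7.97 to 9.26 at 42 weeks. At 28 weeks it read 8.54, 8.52 and 8.85, and in controls 7.66, 7.61 and 7.81. The 28-week arrays lay above the controls and above all DENA plus TCPOBOP arrays, while the 42-week arrays spanned both. Tyrobp rose by 0.94 ± 0.27 at 28 weeks over controls (adjusted p = 0.0412) and differed by 0.36 ± 0.22 in DENA plus TCPOBOP (adjusted p = 0.267) and 0.50 ± 0.23 at 42 weeks (adjusted p = 0.108). Without any 1 of the 6 arrays compared the 28-week rise did not pass (adjusted p of 0.0785 to 0.167).

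The 3 chains of C1q, the complement protein that macrophages supply to the liver and blood, had higher means in each treated group, and C1qb rose in all of them. C1qb ranged from 9.43 through 9.83 to 10.47 in DENA plus TCPOBOP and from 9.34 through 9.91 to 11.25 at 42 weeks, with 10.14, 10.05 and 10.50 at 28 weeks and 9.01, 8.80 and 8.96 in controls. No treated array reached down to the controls. The rises were 0.97 ± 0.30 in DENA plus TCPOBOP (adjusted p = 0.0184), 1.08 ± 0.31 at 42 weeks (adjusted p = 0.00957) and 1.31 ± 0.36 at 28 weeks (adjusted p = 0.0325). C1qc had 9.48, 10.05 and 10.45 as lowest, median and highest level in DENA plus TCPOBOP and 9.35, 10.01 and 11.34 at 42 weeks, and read 10.72, 10.50 and 11.08 at 28 weeks and 9.45, 9.14 and 9.64 in controls. The 28-week arrays lay above the controls, and the other treated groups overlapped them. C1qc rose by 0.84 ± 0.30 at 42 weeks (adjusted p = 0.0393) and by 1.36 ± 0.36 at 28 weeks (adjusted p = 0.0242), and differed by 0.65 ± 0.29 in DENA plus TCPOBOP (adjusted p = 0.111). For C1qa the differences from controls were 0.51 ± 0.25, 0.50 ± 0.26 and 0.90 ± 0.31 in the same order of groups, with adjusted p of 0.141, 0.147 and 0.0919. Among these rises, that of C1qb at 42 weeks passed whichever array was left out. That of C1qb in DENA plus TCPOBOP was lost without any 1 control (adjusted p up to 0.0818), and that of C1qc at 42 weeks without any 1 control or TCPOBOP 42 weeks replicate 1, 3 or 5 (adjusted p up to 0.174). At 28 weeks C1qb was lost without any 1 of the 6 arrays (adjusted p of 0.0669 to 0.135), and C1qc without TCPOBOP 28 weeks replicate 1 or 3 or controls replicate 1 or 2 (adjusted p up to 0.114).

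Laptm5, a lysosomal membrane protein of blood cells and one of the genes with the PU.1 core printed above, ranged from 10.39 through 10.83 to 11.58 in DENA plus TCPOBOP and from 10.46 through 11.35 to 12.09 at 42 weeks, with 11.07, 11.07 and 10.91 at 28 weeks and 10.09, 10.35 and 9.91 in controls. All treated arrays were above the controls. It rose by 0.73 ± 0.26 in DENA plus TCPOBOP (adjusted p = 0.0445) and by 1.15 ± 0.27 at 42 weeks (2.22-fold, adjusted p = 0.00258), and differed by 0.90 ± 0.32 at 28 weeks (adjusted p = 0.115). The 42-week rise passed whichever array was left out and under every other processing run. The rise in DENA plus TCPOBOP passed without DENA plus TCPOBOP replicate 4, 7 or 8, and was lost without any other array compared (adjusted p up to 0.182).

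Lyz1 and Lyz2 encode the 2 mouse lysozymes, and their sequences are so alike that their probes may bind each other's RNA. Lyz2 had 9.14, 9.77 and 11.60 as lowest, median and highest level in DENA plus TCPOBOP and 9.36, 10.62 and 12.75 at 42 weeks, against 10.24, 9.96 and 10.70 at 28 weeks and 9.42, 8.75 and 9.49 in controls. For Lyz1 the levels were 11.17, 11.83 and 13.21 in DENA plus TCPOBOP and 11.48, 12.59 and 14.27 at 42 weeks, with 12.08, 12.11 and 12.35 at 28 weeks and 11.48, 11.32 and 11.38 in controls. Both genes were highest on DENA plus TCPOBOP replicate 2 and TCPOBOP 42 weeks replicate 7 of their groups. At 42 weeks Lyz2 rose by 1.53 ± 0.52 (adjusted p = 0.0294) and Lyz1 by 1.27 ± 0.43 (adjusted p = 0.0274) over controls. Neither passed against controls in DENA plus TCPOBOP or at 28 weeks. Without any 1 control both 42-week rises were lost (adjusted p up to 0.143 for Lyz2 and 0.0907 for Lyz1).

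Cd53, a tetraspanin of leukocytes, had 7.22, 7.67 and 7.93 as lowest, median and highest level in DENA plus TCPOBOP and 7.52, 7.79 and 7.998 at 42 weeks, and read 8.35, 7.86 and 7.92 at 28 weeks and 7.26, 7.46 and 7.50 in controls. The 28-week arrays lay above the controls and overlapped with both other treated groups. Cd53 rose by 0.64 ± 0.16 at 28 weeks over controls (adjusted p = 0.0191) and fell by 0.42 ± 0.13 in DENA plus TCPOBOP relative to TCPOBOP 28 weeks (adjusted p = 0.0417). The rise was lost without TCPOBOP 28 weeks replicate 1 or controls replicate 1 or 2 (adjusted p up to 0.134). The fall was lost without any 1 of the 28-week arrays or DENA plus TCPOBOP replicate 1, 4, 7 or 8 (adjusted p up to 0.324).

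Gpnmb, a glycoprotein of lysosome-rich phagocytes, had the widest range of the 29 genes. It ran from 6.86 through 7.66 to 9.81 in DENA plus TCPOBOP and read 10.74, 7.77, 8.69, 8.14, 8.54, 10.75 and 13.93 on replicates 1 to 7 of TCPOBOP 42 weeks. The 28-week arrays gave 7.35, 7.61 and 7.51 and the controls 7.52, 6.86 and 6.74. All 42-week arrays were above the 28-week and control arrays, and replicate 7 was far above the rest. Gpnmb rose by 2.75 ± 0.90 at 42 weeks over controls (6.75-fold, adjusted p = 0.0226), whereas its differences of 2.30 ± 0.90 from TCPOBOP 28 weeks (adjusted p = 0.0917), 0.93 ± 0.87 between DENA plus TCPOBOP and controls (adjusted p = 0.482) and -1.82 ± 0.66 between DENA plus TCPOBOP and TCPOBOP 42 weeks (adjusted p = 0.139) did not pass. Without TCPOBOP 42 weeks replicate 7 its 42-week rise was 2.06, and without controls replicate 2 or 3 it was lost (adjusted p up to 0.0823). It was lost too with the probes of each gene averaged, slide as a fixed block, a replicate block or the compared groups alone. Over the 14 settings other than leaving out an array, the size of this rise ran between 1.26 and 4.19 (adjusted p up to 0.174). Its 2 other kept probes were dim and changed by 0.38 and 0.64 at 42 weeks.

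Trem2, a receptor for lipids and lipoproteins that signals through Tyrobp, ranged from 7.11 through 7.25 to 7.51 in DENA plus TCPOBOP and from 7.10 through 7.68 to 9.38 at 42 weeks, with 7.18, 7.20 and 7.27 at 28 weeks and 6.77, 7.05 and 6.82 in controls. All treated arrays lay above the controls, and the 3 highest were 42-week arrays. Trem2 rose by 1.01 ± 0.30 at 42 weeks over controls (2.01-fold, adjusted p = 0.0124), and differed by 0.39 ± 0.29 in DENA plus TCPOBOP and 0.34 ± 0.35 at 28 weeks (adjusted p = 0.36 and 0.697). Its adjusted p was 0.0508 without controls replicate 1. TCPOBOP 42 weeks replicate 7 was the highest array of its group for Gpnmb, Trem2, Lyz1, Lyz2, Laptm5, Cd53, Itgb2 and the resident gene Marco. The same array was the lowest of its group for Clec4f, Timd4, Aif1, C1qa, C1qb and C1qc. In DENA plus TCPOBOP, replicate 6 was highest for Clec4f, Vsig4, Timd4, Marco, Adgre1, Csf1r, Aif1 and Ctss and lowest for Cd14 and Gpnmb. Replicate 1 of that group was lowest for Clec4f, Vsig4 and Timd4 and highest for Cd14 and Slc11a1.

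The remaining general genes passed in no comparison by their brightest probe. Ctss (cathepsin S), Mpeg1 (perforin-2) and Aif1 (IBA1) had clear signals on all 22 arrays, with differences from controls between 0.07 and 0.82. A second Aif1 probe passed when fitted with all probes, as it rose by 1.15 at 28 weeks over controls (adjusted p = 0.0267) and fell relative to TCPOBOP 28 weeks, with log2 changes of -1.05 in DENA plus TCPOBOP and -0.99 at 42 weeks (adjusted p = 0.00829 and 0.0142). Msr1 (scavenger receptor A) differed from controls by 0.01 in DENA plus TCPOBOP, 0.09 at 42 weeks and 0.36 at 28 weeks. Fcgr1, Spi1 (the gene of PU.1), Itgb2 and Ptprc (CD45) lay close to the floor, between 6.62 and 7.50, where a change could hardly be seen. The brightest probe of Slc11a1, a metal transporter of the phagosome, lay between 10.42 and 11.34 on all arrays and differed from controls by 0.01 to 0.09. Its 3 dimmer kept probes gave higher values in the treated groups, by up to 0.96 in DENA plus TCPOBOP, 1.06 at 42 weeks and 1.13 at 28 weeks, and all 3 passed at 42 weeks when fitted probe by probe, so this gene's course is uncertain. Of the genes without a kept probe, Fcer1g, Itgam and Ncf1 were detected on no array and Cybb on at most 1.

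**Figure D4:**
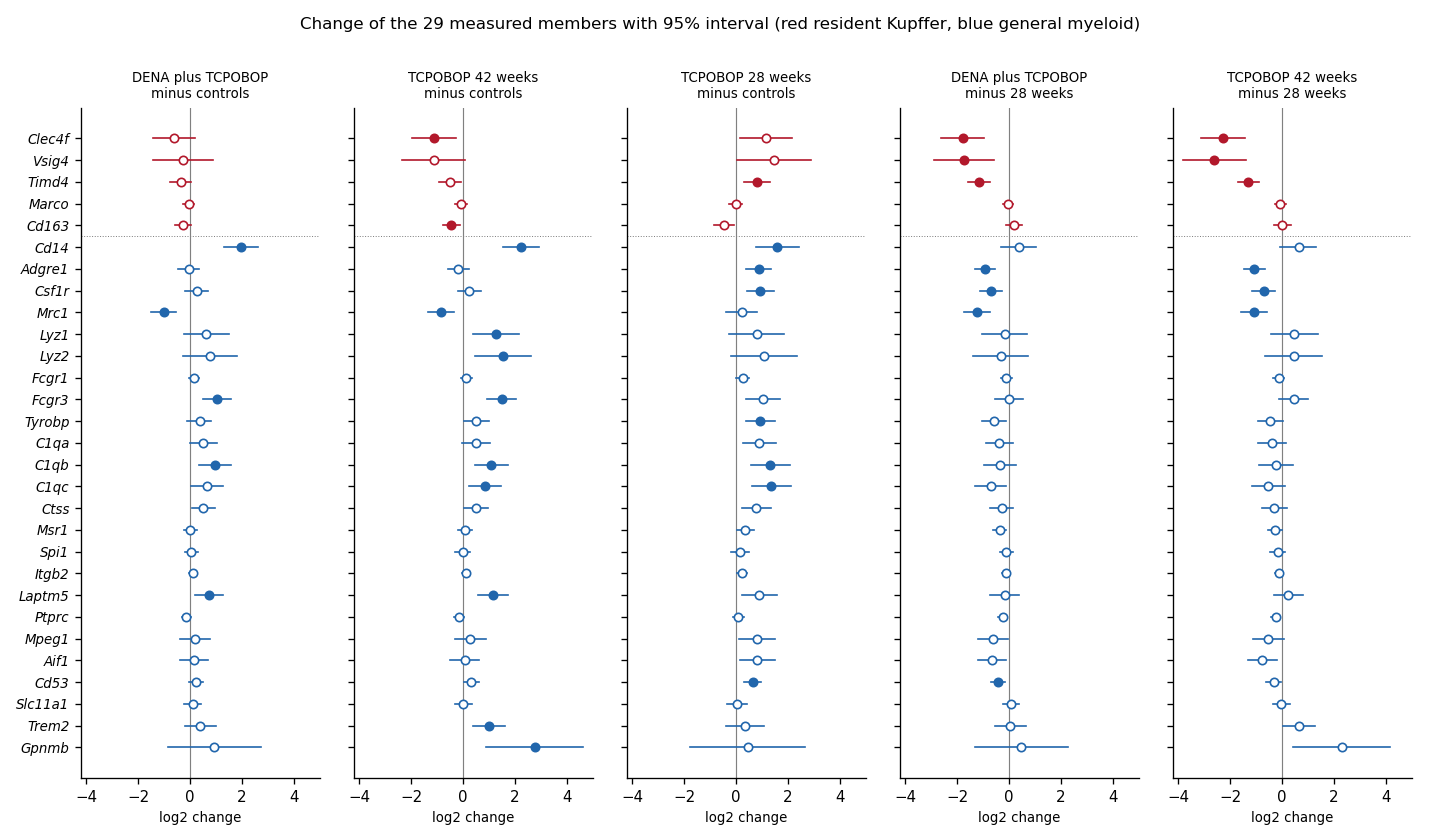
Log2 change of the 29 measured genes in 5 comparisons, with 95% intervals; filled points passed the test at an adjusted p under 0.05. Clec4f, Vsig4 and Timd4 lie left of 0 in DENA plus TCPOBOP and at 42 weeks relative to TCPOBOP 28 weeks, while general myeloid genes (blue; resident genes are red) lie mostly right of 0 relative to controls.

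Against controls, 4 of the 29 genes rose and 1 fell in DENA plus TCPOBOP, where 11.9% and 15% of all genes tested rose and fell (26.9% in all). At 42 weeks 9 rose and 3 fell, against 14.8% and 17.5% of all genes (32.3% in all). At 28 weeks 8 rose and 0 fell, against 3.6% and 2.76% (6.35% in all). The median change of the 29 genes was 0.18, 0.24 and 0.80 in these 3 comparisons, beside -0.01, -0.01 and -0.02 over all genes. In DENA plus TCPOBOP 5 of the 29 genes had all arrays above all controls and 1, Mrc1, had all below, where 9.81% and 11.7% of all genes did. At 42 weeks these were 8 above and 2 below (Cd163 and Mrc1), where 12.6% and 14.2% of all genes did. At 28 weeks 22 of the 29 genes had all treated arrays above all controls, where 15.8% of all genes did, and Cd163 had all of them below, where 17.5% did. The share of the 29 that fell was therefore under the background in every comparison with controls, and the share that rose was over it at 28 and 42 weeks and close to it in DENA plus TCPOBOP. None of the 8 rises at 28 weeks passed whichever array was left out. Without TCPOBOP 28 weeks replicate 1, controls replicate 1 or controls replicate 2 none passed, and without TCPOBOP 28 weeks replicate 3, controls replicate 3 or TCPOBOP 28 weeks replicate 2 there were 1, 4 and 4 of the 8, with Ctss passing as well in the last. Fitted without the other groups, which are more varied, 19 genes rose at 28 weeks, and with each array scaled to its median none did.

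Relative to TCPOBOP 28 weeks, 7 genes fell and 0 rose in DENA plus TCPOBOP, where 7.11% of all genes fell and 5.92% rose. At 42 weeks 6 fell and 0 rose, where 7.83% fell and 6.62% rose. All arrays lay below all 28-week arrays for 7 of the 29 genes in DENA plus TCPOBOP and for 6 at 42 weeks, where 6.61% and 8.64% of all genes did so. All lay above for 0 and for 1 (Gpnmb), where 5.97% and 7.74% did so. Over both directions 13% and 14.5% of all genes passed. Of the 5 resident genes 3 fell in both comparisons, with median changes of -1.16 and -1.29 over the 5, and of the 24 general genes 4 and 3 fell, with medians of -0.30 and -0.23. Both comparisons share the 3 arrays of TCPOBOP 28 weeks. Between DENA plus TCPOBOP and TCPOBOP 42 weeks, limma called 0 of the 29 genes, where 0.843% of all genes were higher and 0.969% lower (1.81% in all), and the changes had a median of -0.02. The arrays of these groups overlapped for all 29 genes, where 0.125% of all genes lay wholly higher and 0.0752% wholly lower. At an unadjusted p under 0.05, 4 of the 29 genes were lower in DENA plus TCPOBOP than at 42 weeks (Trem2, Gpnmb, Fcgr3 and Laptm5, with p of 0.00947, 0.0112, 0.0331 and 0.0462 from limma), and 0 were higher, where 9.97% of all genes were lower and 9.38% higher.

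Other settings ended calls of genes that have been described. With slide as a fixed block, the falls of Clec4f, Mrc1 and Cd163 and the rises of Lyz1, Lyz2, C1qc and Trem2 at 42 weeks, and the rises of C1qb and Laptm5 in DENA plus TCPOBOP, did not pass against controls. With median scaling, Cd163, Lyz1, Lyz2, C1qb and C1qc at 42 weeks and C1qb and Laptm5 in DENA plus TCPOBOP did not pass. Without a filter, Clec4f and C1qc at 42 weeks and Laptm5 in DENA plus TCPOBOP did not pass, and with cyclic loess Clec4f and Lyz1 at 42 weeks did not. With the compared groups alone Lyz1, Lyz2, C1qc and Trem2 at 42 weeks did not pass. Relative to TCPOBOP 28 weeks, the fall of Csf1r was lost with median scaling in both comparisons, without a filter at 42 weeks and with the compared groups alone in DENA plus TCPOBOP, and that of Cd53 with neqc, median scaling, no filter and the compared groups alone. Over the 14 settings other than leaving out an array, the highest adjusted p of these results lay between 0.0728 (Mrc1) and 0.26 (Cd163).

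Slides held arrays of several groups, so part of each comparison could be read within them. The 42-week arrays lay on slides 1 and 2 only, those of DENA plus TCPOBOP on slides 1, 3 and 4, and slide 1 held no control. The 42-week arrays therefore met controls only on slide 2 and DENA plus TCPOBOP only on slide 1. Slide and group are thus partly confounded. On slides 1 and 2 the 5 resident genes differed by a mean of -1.41 and -1.07 between 42 and 28 weeks of TCPOBOP, and the 24 general genes by -0.08 and 0.01. Between DENA plus TCPOBOP and TCPOBOP 28 weeks the resident mean was -1.34 on slide 1 and -1.07 on slide 4, and the general mean -0.21 and -0.54. Between DENA plus TCPOBOP and controls the resident mean was 0.00 on slide 3 and -0.51 on slide 4, and the general mean 0.43 and 0.20. On slide 2, the 42-week arrays differed from the control by -0.68 in the resident and 0.61 in the general mean, and on slides 2 and 4 the 28-week array differed from the control by 0.39 and 0.56 in the resident and 0.60 and 0.75 in the general mean. Each of these rests on 1 array of TCPOBOP 28 weeks or of the controls. With slide as a term of the fit, 4 genes rose and 0 fell at 42 weeks over controls and 2 rose in DENA plus TCPOBOP, and the falls of Clec4f, Timd4, Adgre1 and Mrc1 relative to TCPOBOP 28 weeks passed in both comparisons.

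Lists of genes that work with these markers were read in the same fit, and their counts stand beside the background given above. Of 12 measured genes of Toll-like receptors and lipopolysaccharide sensing, 4 rose in DENA plus TCPOBOP, 7 at 42 weeks and 3 at 28 weeks over controls, and 0 fell. Tlr2, the receptor for bacterial lipoproteins, rose by 2.20 ± 0.36, 2.20 ± 0.38 and 2.49 ± 0.45 in these groups (adjusted p = 0.000106, 0.000127 and 0.00112). Of 12 genes of Fc receptors and their signalling, 3, 5 and 4 rose and 1, 1 and 0 fell. Sirpa, the inhibitory receptor for CD47, rose by 1.63 ± 0.26, 2.27 ± 0.27 and 2.24 ± 0.32, and Clec7a, the receptor for fungal glucans, by 0.79 ± 0.18, 1.00 ± 0.19 and 1.58 ± 0.23. The gene of this list that fell was Fcgr2b, the inhibitory Fc receptor, by 1.36 ± 0.25 in DENA plus TCPOBOP and 1.35 ± 0.25 at 42 weeks (adjusted p = 0.000266 and 0.000332), and most Fcgr2b of the liver is made by the sinusoidal endothelium.

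Among 12 measured genes of lipid-associated macrophages, 5 rose and 2 fell in DENA plus TCPOBOP, 7 rose and 1 fell at 42 weeks, and 4 rose and 1 fell at 28 weeks over controls. The largest rises were those of Lgals3 (galectin-3; 4.14 ± 0.24, 4.50 ± 0.25 and 3.17 ± 0.30) and Cd63 (a lysosomal tetraspanin; 3.80 ± 0.26, 4.20 ± 0.27 and 1.70 ± 0.32), with adjusted p of at most 0.00187. Many cell types besides macrophages make Lgals3, Cd63, Cd9 and Lpl, so these values do not belong to macrophages alone. Of 10 measured transcription factors of Kupffer cells, 3 rose and 4 fell in DENA plus TCPOBOP, 2 rose and 4 fell at 42 weeks, and 1 rose and 1 fell at 28 weeks. Irf8, which myeloid cells need, rose by 0.68 ± 0.23, 0.93 ± 0.23 and 1.07 ± 0.28. Spic, a factor of red pulp and iron-handling macrophages, rose by 0.51 ± 0.11 in DENA plus TCPOBOP and by as much at 42 weeks. Id3, which Kupffer cells need in the mouse, fell by 1.43 ± 0.26 in DENA plus TCPOBOP and 1.76 ± 0.27 at 42 weeks (adjusted p = 0.000344 and 4.50e-05). Nr1h3, the gene of LXR alpha, fell by 0.43 ± 0.15 and 0.75 ± 0.16 in these groups (adjusted p = 0.0421 and 0.000962), and it and Id3 are also made by other liver cells.

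In smaller lists, 3 of 11 measured chemokines and cytokines rose and 1 fell in DENA plus TCPOBOP, 4 rose and 1 fell at 42 weeks, and 1 rose and 0 fell at 28 weeks. Ccl4 rose by 2.39 ± 0.39, 3.24 ± 0.40 and 2.76 ± 0.47, and Il18 fell by 1.32 ± 0.23 in DENA plus TCPOBOP and 1.49 ± 0.24 at 42 weeks. Of 15 lysosomal genes 3, 4 and 1 rose and 3, 2 and 1 fell, with Lgmn (legumain) up by 1.23 ± 0.21, 1.75 ± 0.22 and 1.38 ± 0.26 and Ctsc (cathepsin C) down by -1.27 ± 0.11, -1.37 ± 0.11 and -0.55 ± 0.13. Of 10 genes of iron and haem handling 2, 2 and 1 rose and 0, 1 and 0 fell, the fall being that of Cd163. Tfrc, the transferrin receptor, rose by 2.08 ± 0.18, 2.05 ± 0.18 and 1.15 ± 0.22. Of 8 growth factors and receptors of macrophages 1, 1 and 2 rose and 0 fell, and Tgfbr2 rose in all 3 groups by 1.36 ± 0.19, 1.48 ± 0.20 and 1.41 ± 0.24. None of the 3 measured NADPH oxidase genes passed against controls. In the complement list, C1qb, C1qc and Vsig4 have been described, and 4 of its 9 genes (Itgam, Itgax, C3ar1 and C5ar1) were detected on no array.

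Markers of other liver cells moved in the same comparisons. Of 13 measured genes of the sinusoidal endothelium, 8 fell in DENA plus TCPOBOP, 9 fell at 42 weeks and 0 fell at 28 weeks relative to controls, and 0 rose, with median changes of -1.20, -1.12 and -0.04. Mrc1 and Fcgr2b, given above, belong to this list and are counted again among its falls. The summed linear intensity of the 13 lay between 3050 and 8410 in DENA plus TCPOBOP and 3120 and 5540 at 42 weeks. It lay between 10700 and 13100 at 28 weeks and 12200 and 14000 in controls. In this and the later sums brighter genes count for more. Bmp2 of the endothelial list was detected on no array. Clec4g, a lectin of these cells, fell by 2.33 ± 0.67 in DENA plus TCPOBOP and fell by 3.69 ± 0.69 at 42 weeks relative to controls (adjusted p = 0.0127 and 0.000323), and Stab2, their hyaluronan receptor, by 1.49 ± 0.28 and 1.87 ± 0.29 (adjusted p = 0.000424 and 4.75e-05). Of 13 genes of stellate cells and fibroblasts 6 fell in DENA plus TCPOBOP and 5 at 42 weeks, where Col1a1 rose, and none passed at 28 weeks. Their summed intensity lay between 2870 and 9870 in DENA plus TCPOBOP, 3410 and 11900 at 42 weeks, 15800 and 17900 at 28 weeks and 18600 and 20800 in controls. Of 10 hepatocyte genes 4 fell in DENA plus TCPOBOP, 5 at 42 weeks and 0 at 28 weeks, with sums of 107000 to 149000, 115000 to 155000 and 133000 to 145000 in these groups and 155000 to 176000 in controls. Relative to TCPOBOP 28 weeks, where Clec4f, Vsig4, Timd4 and Mrc1 fell, 8 endothelial genes, counting Mrc1, and 5 stellate genes fell in DENA plus TCPOBOP and 9 and 5 fell at 42 weeks. Of the stellate list 2 genes, Col1a1 and Acta2, rose at 42 weeks, and 0 rose in DENA plus TCPOBOP. No endothelial gene rose in either comparison. Over all genes 7.11% fell and 5.92% rose in DENA plus TCPOBOP, and 7.83% fell and 6.62% rose at 42 weeks. The part of a changed makeup of the tissue in the levels of the macrophage genes was not tested.

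Genes of other blood cells were read against controls in the same way. Over all genes 26.9% passed in DENA plus TCPOBOP, 32.3% at 42 weeks and 6.35% at 28 weeks. Of 6 measured monocyte genes 0 passed in DENA plus TCPOBOP and at 28 weeks, and 1, Ly6c1, rose by 1.26 ± 0.21 at 42 weeks (adjusted p = 0.000112), while Ccr2, Ly6c2 and Vcan had no kept probe. The summed intensity of the 6 lay between 5620 and 15000 in DENA plus TCPOBOP, 7070 and 11800 at 42 weeks, 6290 and 8280 at 28 weeks and 5750 and 9540 in controls. Of 6 neutrophil genes S100a8 rose by 2.08 ± 0.47 at 28 weeks (adjusted p = 0.0085), and at 42 weeks Mpo rose by 1.38 ± 0.44 and S100a9 fell by 0.70 ± 0.22 (adjusted p = 0.0201 and 0.0182), while Ngp, Cxcr2 and Mmp8 were detected on no array. Their summed intensity lay between 1060 and 1310 in DENA plus TCPOBOP, 892 and 2880 at 42 weeks, 1360 and 2150 at 28 weeks and 811 and 1160 in controls. Among 7 genes of dendritic cells Clec9a rose by 0.40 ± 0.10 at 28 weeks and fell by 0.25 ± 0.09 in DENA plus TCPOBOP and 0.23 ± 0.09 at 42 weeks. Of 10 genes of T and NK cells, Zap70 fell in all 3 groups, and of 4 genes of B and plasma cells Cd74, which macrophages also make, rose in all 3, while Mzb1 fell in DENA plus TCPOBOP. None of the 3 measured bile duct genes passed against controls.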

How the data were processed

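RNA of 22 liver samples was measured on an Illumina mouse bead array of 45281 probes, read with BeadStudio 3.0.19.0 per the submitters' processing notes. The authors deposited a non-normalized and a normalized table of linear intensities with a detection p-value for each probe and array, per the file headers. The normalization method is not given in the sources used here. Every array of the normalized table has the same lowest and highest value (80.3421 and 46395.2), and the series' value table holds the same values. The deposited non-normalized intensities hold no value at or below 0, so no background had been subtracted.

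From the normalized intensities log2 values were computed. A probe was kept where 3 or more arrays detected it at p under 0.05 (22622 probes, of which 19067 have 1 gene symbol). Of all probes, 34885 have 1 symbol in the platform annotation, 18 have several and 10378 have none. The brightest kept probe stood for each of 11975 genes, of which 4739 had several. The 4 groups entered 1 fit in limma 3.58.1 (lmFit and eBayes, R 4.3.3), with 6 contrasts and Benjamini-Hochberg adjustment over all genes at 0.05, and the steps were tested on simulated data. Tables and plots used Python 3.11.15, pandas 2.3.3, numpy 2.4.6 and matplotlib 3.10.9. For a gene not detected on any array of a group, the fold is a bound set against, on each array, the higher of its own value and the lowest detected signal. No 2 arrays held identical values. The number of arrays limits the precision. Sequences are RefSeq's (GRCm38.p6), and no protein sequence is shown.

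Genes named in the text are the 36 members, members that passed a test or stand out on an array with their values, and from the other lists those that passed with the largest changes. The members and all lists were chosen with earlier results of these data known, so counts over them are descriptions. Alternatives were neqc (offset 16) and quantile normalization of the non-normalized table, the series' values, median scaling, cyclic loess, no filter, detection on at least 11 arrays, averaging the probes of each gene, a fixed or random slide term, a replicate block, array weights, trend and robust moderation, the compared groups alone, and leaving out each array. A second protocol of the study with shorter treatment is not analysed here.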

Additional observations from a re-analysis of the deposited data

Results flagged for a closer look

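Of 60 sets of values tested, 58 were a gene in the group of 9 or of 7 arrays and 2 the resident minus general value in these groups. In 2 of the 60, 1 array stood apart from the rest by Dixon's criterion at the 95% level, where chance gives about 1 in 20. Marco read 7.30 on TCPOBOP 42 weeks replicate 7, with the nearest array of that group at 6.91 and the farthest at 6.79. Fcgr3 read 9.98 on DENA plus TCPOBOP replicate 2, with the nearest array at 9.26 and the farthest at 8.60.

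For 6 genes the change from controls differed between 42 and 28 weeks of TCPOBOP by the limma contrast of the 2 times. Both changes use the same controls, which cancel. These are therefore the falls relative to TCPOBOP 28 weeks given above, and not a further result. The change at 42 weeks minus that at 28 weeks was -2.27 for Clec4f, -2.60 for Vsig4, -1.29 for Timd4, -1.07 for Adgre1, -0.70 for Csf1r and -1.09 for Mrc1. The controls cancel and the labels do not give their ages, so age and length of treatment cannot be told apart in these differences.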

How the results depend on the processing

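No result that passed a test changed direction under any alternative, and for single genes 2283 values kept their side of the threshold, 63 lost a call and 66 gained one under settings other than leaving out an array. When an array was left out, 1800 kept their side, 103 lost a call and 11 gained one. The summary values that moved are these. With neqc the resident minus general value was -2.05 at 42 weeks and -1.18 in DENA plus TCPOBOP relative to controls, and -1.61 at 42 weeks relative to 28 weeks. With the strict filter it was 0.384, with the sign turned, at 28 weeks relative to controls, and -1.24 in DENA plus TCPOBOP and -1.98 at 42 weeks relative to 28 weeks. With median scaling 2, 5 and 0 of the 29 genes rose in DENA plus TCPOBOP, at 42 weeks and at 28 weeks over controls, and 4 fell in DENA plus TCPOBOP relative to 28 weeks. Without a filter 5 rose at 28 weeks. With slide as a fixed block 2 rose in DENA plus TCPOBOP, and 4 rose and 0 fell at 42 weeks. With array weights 18 rose and 1 fell at 28 weeks and 5 fell at 42 weeks over controls, and relative to 28 weeks 13 fell in DENA plus TCPOBOP and 1 rose at 42 weeks. With the compared groups alone 7 rose in DENA plus TCPOBOP, 4 at 42 weeks, and 19 rose and 1 fell at 28 weeks. The cause of these moves was not tested, apart from the genes that a filter removes or adds.

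Without 1 array, the genes that rose over controls were 2 to 4 in DENA plus TCPOBOP, 5 to 10 at 42 weeks and 0 to 5 at 28 weeks, and those that fell 1 to 2 and 0 to 4 in the first 2. Relative to 28 weeks, 4 to 9 fell in DENA plus TCPOBOP and 5 to 8 at 42 weeks. The resident minus general value ran over -0.807 to -0.656, -1.39 to -1.14 and -0.169 to -0.0809 relative to controls, -0.69 to -0.539 and -1.28 to -1.02 relative to 28 weeks, and 0.424 to 0.677 between DENA plus TCPOBOP and 42 weeks.

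Over all genes, median scaling called 698, 760 and 326 genes in DENA plus TCPOBOP and at 42 weeks relative to 28 weeks and at 28 weeks relative to controls, against 1561, 1731 and 761, and the higher and lower calls split 178 and 520, 170 and 590, and 219 and 107, against 709 and 852, 793 and 938, and 431 and 330. At 42 weeks relative to controls it called 923 higher and 1611 lower, against 1773 and 2097. Array weights called 2770, 2754 and 2086 genes in the first 3 of these. Between DENA plus TCPOBOP and 42 weeks 217 genes were called, but 1 with median scaling, 0 with slide as a fixed block, 118 with slide as a random block, 124 without a filter, 89 with the groups alone and 94 to 639 without 1 array. Arrays of the same number in different groups hardly deviated together (22 pairs, r of -0.175 to 0.183, median 0.0366, against a median of -0.00483 for different numbers). This gave no sign that numbers pair samples, though low correlations cannot show that none are paired. For arrays of different groups on the same slide the median r was 0.0752, against -0.016 on different slides. With a replicate block 1 gene rose at 42 weeks relative to 28 weeks, and Cd163, Lyz1, Lyz2 and Gpnmb at 42 weeks and Laptm5 in DENA plus TCPOBOP did not pass against controls, nor Csf1r in both comparisons and Cd53 in DENA plus TCPOBOP relative to 28 weeks. Signal near the floor limits Cd163, Marco, Trem2, Fcgr1, Spi1, Itgb2 and Ptprc.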
